A study of Mus musculus with 12 samples.

Results

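The mouse mitochondrial genome encodes 13 proteins of the respiratory chain and ATP synthase, 2 ribosomal RNAs and 22 transfer RNAs. These 37 genes were taken as the rows of the deposited count table whose Ensembl identifier is paired with a symbol starting with mt-, out of 47643 genes in all. The choice used names and not measured values. A QuantSeq kit, which reads RNA near its 3' end, was applied to gastrocnemius (calf muscle) RNA of 6 female C57BL/6J mice aged 11 weeks. According to the titles, 3 mice were controls and 3 over-expressed the growth-promoting transcription factor c-myc (Myc). Each mouse gave its left leg and its right leg, and the source names give the right leg as the contracted one, which makes 12 libraries in 4 groups of 3. The 3 mice of a group are separate animals, per the titles. Contraction and body side cannot be told apart, because the contracted leg was the right leg in every mouse. How Myc was over-expressed, which promoter or cell type drove it, and the delay between contraction and sampling are not given in the sources used here.

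Mitochondrial DNA is transcribed from both strands into long precursors. In the usual model the transfer RNAs lie between the other genes and are cut out, which frees the ribosomal and messenger RNAs on either side. Most of the mature messenger RNAs, and both ribosomal RNAs, end in short A tails, which is where a library primed on A tails can begin. Oxidative muscle is rich in these transcripts, whose proteins work together with subunits imported from the nucleus.

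Total counts per library were 1371732 to 1643216, and levels are given as reads scaled to that total (CPM). A count of 0 allows up to 3 reads, which were worth 1.83 to 2.19 CPM. The intervals given reflect counting error alone, because reads here carry no molecular identifier and may repeat a molecule. The reads of Myc itself went against some labels. The 3 uncontracted control libraries held 0, 1 and 0 Myc reads and the 3 uncontracted Myc libraries 11, 9 and 9. The contracted libraries labelled control 1, 2 and 3 held 1, 10 and 59, and those labelled Myc 1, 2 and 3 held 32, 0 and 2. Among the contracted libraries numbered 2 and 3, those labelled control thus held more Myc reads than those labelled Myc. For control 2 and 3, a rise of Myc with contraction and a wrong label cannot be told apart. All 4 are described below as going against their labels in this sense alone. The contraction and genotype comparisons are also given without them. Skeletal muscle markers summed to between 91091 and 116290 CPM in every library, while the heart markers Myh6 and Nppa together reached at most 1.98 CPM.

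Of the 37 members, 13 had no read in any library and 3 more, mt-Tw, mt-Co3 and mt-Te, had 1 read in all. These 16 comprise 10 transfer RNA genes and 6 protein genes. The protein genes are mt-Co2 and mt-Co3, which encode cytochrome c oxidase subunits, mt-Atp6 and mt-Atp8, which encode ATP synthase subunits, and mt-Nd3 and mt-Nd4l, which encode complex I subunits. Both mitochondrial genes for ATP synthase were thus at 0 in all 12 libraries. A group of 10 members had a mean of at least 50 reads per library, and 11 had a mean of 1 to 50.

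The undetected genes were compared with nuclear copies of mitochondrial DNA, because a read that matches both places cannot be placed from its letters alone. Every window of 50 bases of each member was looked up on both strands in the transcripts of all other genes of GENCODE M21, which is on build GRCm38, the same build as mm10. In mt-Co2, 100% of windows occurred in a nuclear transcript, and the shares were 99.5% in mt-Atp6, 99.9% in mt-Co3, 98.0% in mt-Nd3 and 98.8% in mt-Nd4l. In mt-Atp8, the other protein gene at 0, no window did. The copies are annotated mainly as pseudogenes, among them Gm28661 (mt-Co2), Gm10925 (mt-Atp6), Gm28437 (mt-Co3), Gm28438 (mt-Nd3) and Gm10222 (mt-Nd4l), all on chromosome 1. All 14 genes that share a window took only 27 to 75 reads per library together, at most 0.00507% of reads. The search covered annotated transcripts and not the whole genome, and how the authors treated reads with several matches is not given in the sources used here. Whether shared sequence led to the missing reads was not tested.

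Detected genes showed both patterns. In mt-Nd4, 62.2% of windows were shared, all within its first 876 bases, and none in its last 502 bases. In mt-Nd1, mt-Cytb, mt-Nd6 and mt-Rnr1 no window was shared. In mt-Co1 every window of the last 300 bases was shared, and it still had 2568 to 3452 reads per library. The ends of a gene at 0 and of the 2 highest genes are shown next to the mt-Nd4 boundary because they carry this contrast. Capitals mark bases within a window found in a nuclear transcript, on the + strand of the mitochondrial chromosome.
mt-Co2, last 60 bases, chrM:7637-7696: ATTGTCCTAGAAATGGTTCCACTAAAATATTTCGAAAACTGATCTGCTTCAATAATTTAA
mt-Nd4, around base 876, chrM:11013-11072: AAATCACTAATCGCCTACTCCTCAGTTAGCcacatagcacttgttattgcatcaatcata
mt-Nd4, last 60 bases, chrM:11485-11544: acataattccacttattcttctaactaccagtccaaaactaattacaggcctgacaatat
mt-Nd1, last 60 bases, chrM:3648-3707: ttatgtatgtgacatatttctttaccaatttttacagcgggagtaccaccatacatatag

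**Figure D1:**
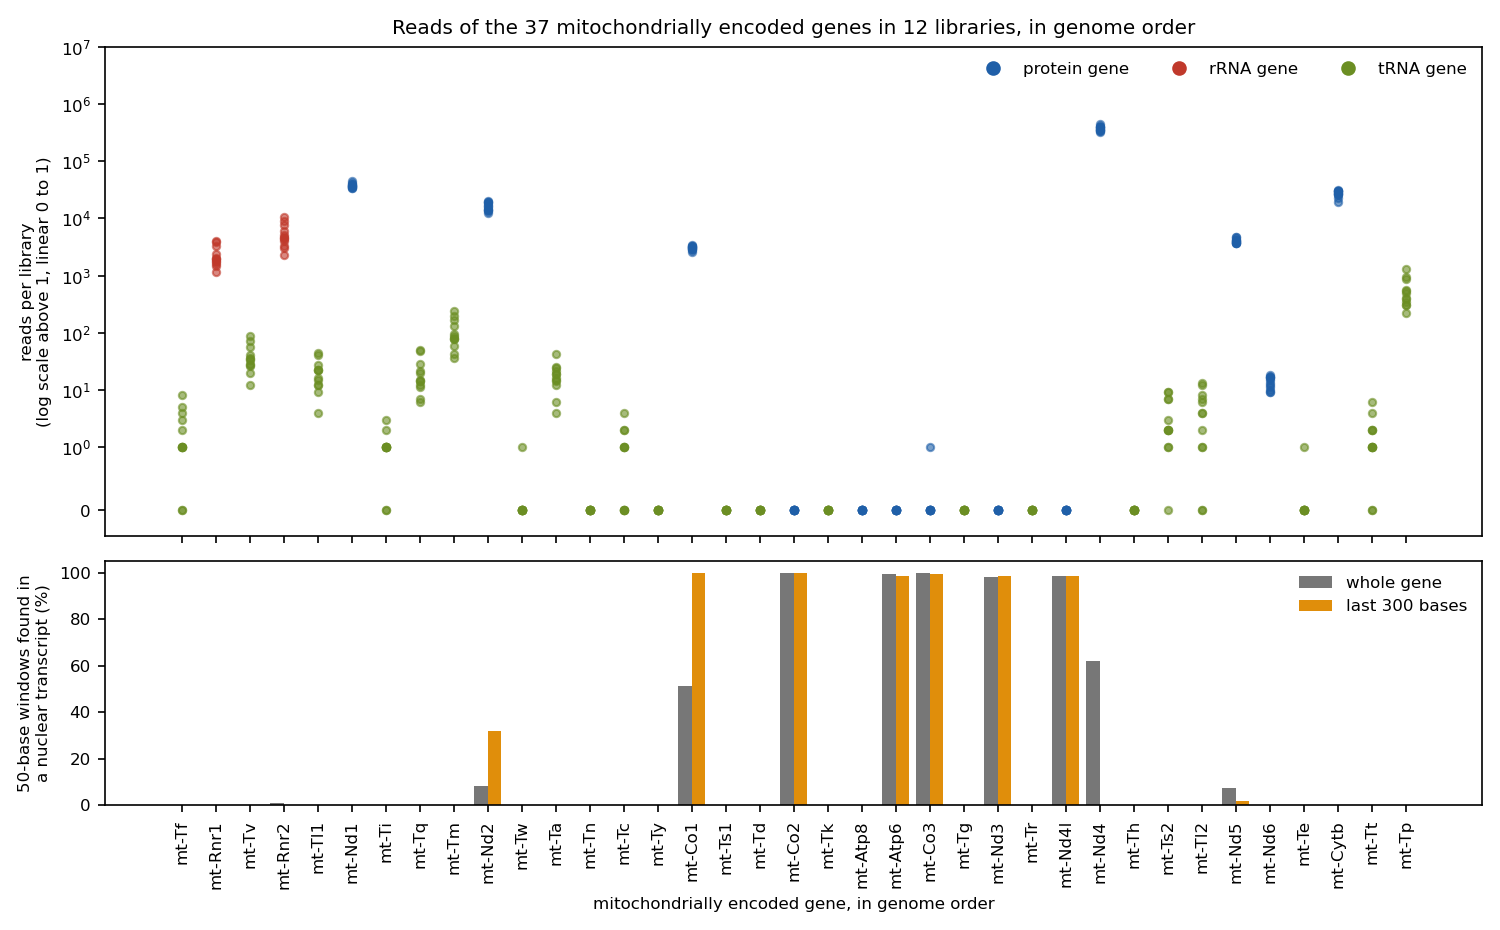
Reads of each of the 37 members in genome order, with 1 point per library on a log axis (upper panel), and the percentage of 50-base windows found in a nuclear transcript for the whole gene and its last 300 bases (lower panel). The 6 protein genes at 0 or 1 read lie between mt-Co1 and mt-Nd4, and mt-Nd4 has the most reads.

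Mitochondrially encoded transcripts took 27.1 to 35.2% of the reads of a library, with a median of 30.7%. The control uncontracted libraries gave 28.3, 33.7 and 27.1% and the control contracted libraries 30.9, 33.9 and 30.5%. The Myc uncontracted libraries gave 32.1, 29.4 and 35.2% and the Myc contracted libraries 34.1, 28.2 and 27.5%. All 4 groups overlapped. The 95% Wilson interval of the share in the first of these libraries was 28.28 to 28.42%. In bulk muscle, fewer mitochondria-rich cells and less mitochondrial RNA per cell cannot be told apart.

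Legs were paired by the animal number in the titles. Where a label is wrong, a pair joins legs of different mice, here and in the counts of animals below. Within these pairs, deviations from group means correlated at only -0.122 to 0.112 over all genes. In the same animal, the share of the contracted leg minus that of the uncontracted leg was -0.114 ± 4.07 percentage points (mean ± SD, n = 6), and it was positive in 4 of 6 animals. The difference was 2.08 ± 1.63 points in the 3 controls and -2.31 ± 4.94 points in the 3 Myc mice. Myc mouse 3 gave the widest difference, at -7.70 points, and without that mouse the mean over the other 5 was 1.40 points. Without the 4 libraries whose Myc reads go against their labels, 1 mouse per genotype remained and the mean was 2.27 points. The mean of both legs was 0.366 points higher in Myc than in control mice, and 2.56 points higher in the uncontracted legs alone. Each of these group means was smaller than the range between mice of 1 group. No p is given for these shares, since they are sums over the members.

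The share was mostly 1 gene. mt-Nd4, a core subunit of complex I, alone took 21.1 to 29.4% of all reads and 76.1 to 83.6% of the mitochondrial reads. It took 23.1, 27.6 and 21.1% of reads in control uncontracted, 24.9, 27.3 and 23.5% in control contracted, 25.5, 22.9 and 29.4% in Myc uncontracted, and 27.3, 21.5 and 21.2% in Myc contracted libraries. All 4 groups overlapped. The remaining members took 5.24, 6.11 and 6.01% in control uncontracted, 6.01, 6.69 and 7.04% in control contracted, 6.69, 6.50 and 5.79% in Myc uncontracted, and 6.78, 6.75 and 6.31% in Myc contracted libraries. This share was higher in the contracted leg of 6 of 6 animals, by 0.540 ± 0.341 points (SD, n = 6). In the 2 animals whose contracted library went with its label, it was higher by 0.762 points (control 1) and 0.0888 points (Myc 1).

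The classes behaved differently. The 2 ribosomal RNA genes took 0.412, 0.306 and 0.460% of reads in control uncontracted libraries against 0.446, 0.556 and 0.872% in control contracted ones. In the Myc libraries they took 0.388, 0.299 and 0.248% uncontracted against 0.403, 0.877 and 0.693% contracted. The contracted leg was higher in 6 of 6 animals, by 0.289 ± 0.230 points. In control 1 and Myc 1, whose contracted libraries went with their labels, the difference was 0.0336 and 0.0148 points. The transfer RNA genes together took 0.0211 to 0.109% of reads and were higher in the contracted leg of 4 of 6 animals, by 0.0319 ± 0.0372 points. In control 1 and Myc 1 that difference was -0.00592 and 0.0236 points.

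**Figure D2:**
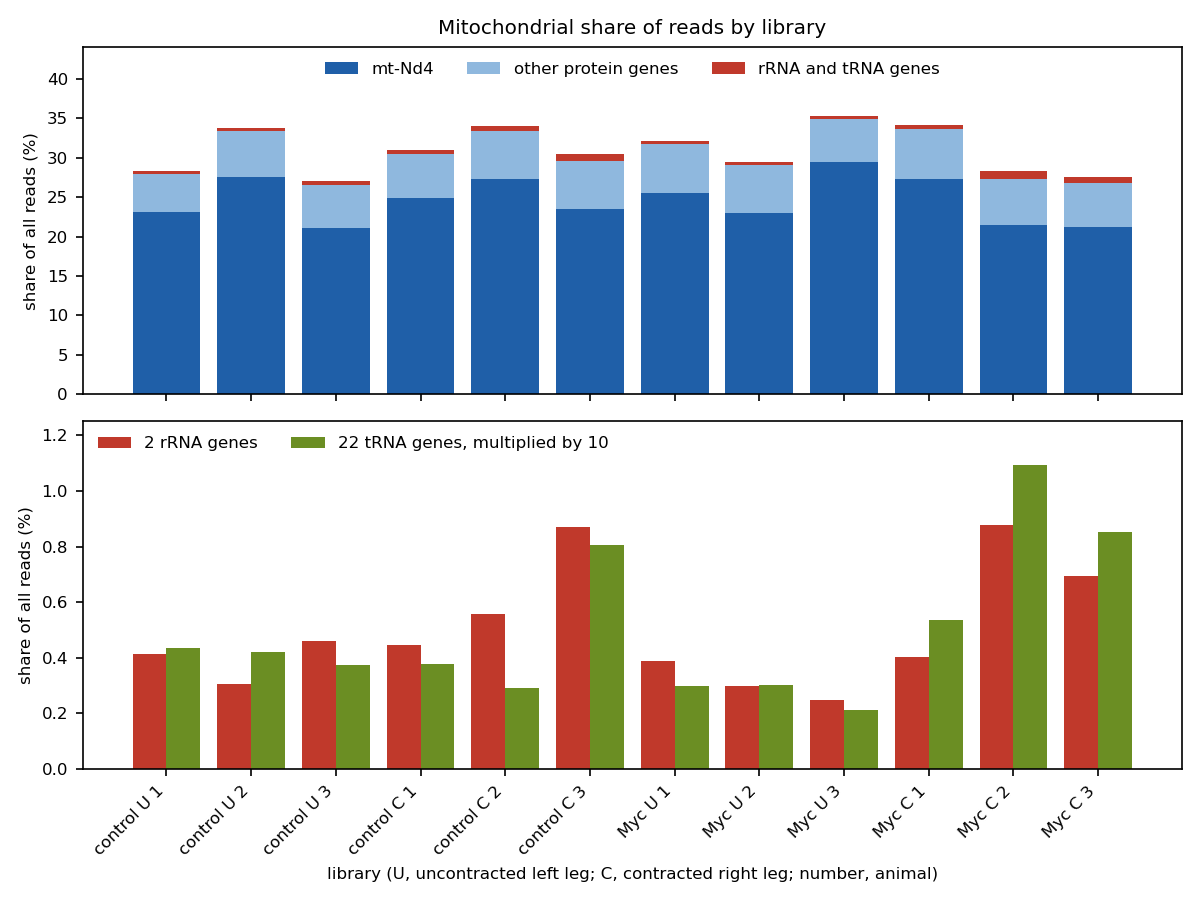
Share of all reads in each library, in percent, stacked by mt-Nd4, the other protein genes, and the ribosomal and transfer RNA genes (upper panel), and for the ribosomal and transfer RNA genes alone, the latter multiplied by 10 (lower panel). The ribosomal RNA share is highest in the contracted libraries labelled control 3, Myc 2 and Myc 3, at 0.872, 0.877 and 0.693%.

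Among the complex I messenger RNAs, mt-Nd4 was followed by mt-Nd1 and mt-Nd2, core subunits of the membrane arm. Control uncontracted libraries held 22822, 23832 and 23360 CPM of mt-Nd1, control contracted 23923, 25862 and 24723, Myc uncontracted 28898, 27457 and 24882, and Myc contracted 26484, 22469 and 21213. The control legs did not overlap, by a narrow margin, and the Myc legs did. With the scaling of the test given further on, the control legs overlapped. How many of all genes have legs that do not overlap was not counted, here or below. mt-Nd2 was at 8628, 10734 and 9206 CPM in control uncontracted, 9697, 10857 and 12824 in control contracted, 10091, 8919 and 8989 in Myc uncontracted, and 13645, 12056 and 11986 in Myc contracted libraries. It was higher in the contracted leg of 6 of 6 animals, and the Myc legs did not overlap.

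mt-Co1 and mt-Nd5 varied least among the messenger RNAs. mt-Co1, the catalytic subunit of cytochrome c oxidase, was at 1894, 1851 and 1910.3 CPM in control uncontracted, 1974, 2007 and 2181 in control contracted, 2013, 2172 and 1872 in Myc uncontracted, and 1985, 2101 and 1982 in Myc contracted libraries. mt-Nd5, a core subunit of the membrane arm of complex I, was at 2599, 2912 and 2546 CPM in control uncontracted, 2705, 2656 and 2767 in control contracted, 2402, 2459 and 2706 in Myc uncontracted, and 2595, 2860 and 2784 in Myc contracted libraries. The mt-Co1 legs did not overlap in controls, where the change did not pass the test given further on, and the other legs overlapped. With the scaling of that test the mt-Co1 legs overlapped in controls too. The standard deviation over the libraries was 5.48% of the mean for mt-Co1 and 5.79% for mt-Nd5, where counting error alone would give 1.81% and 1.56%. mt-Cytb, the cytochrome b of complex III, was at 11932, 18301 and 18072 CPM in control uncontracted, 16926, 19660 and 18387 in control contracted, 19305, 20691 and 16709 in Myc uncontracted, and 18501, 18128 and 17388 in Myc contracted libraries. Its lowest value, in control uncontracted 1, lay apart from the other 11, and the groups overlapped. mt-Nd6, the protein gene encoded on the other strand, held 9 to 18 reads per library. Per kilobase, the median level was 175450 CPM for mt-Nd4, 25416 for mt-Nd1, 15922 for mt-Cytb and 10031 for mt-Nd2, although a 3' end library counts ends and not length.

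The ribosomal RNAs are not translated but form the 2 subunits of the mitochondrial ribosome. mt-Rnr1, the small subunit RNA, was at 1212, 992 and 1290 CPM in control uncontracted libraries and at 1367, 1590 and 2572 CPM in control contracted ones. In Myc mice it was at 1106, 953 and 845 CPM uncontracted and at 1268, 2398 and 2061 CPM contracted. The legs did not overlap in either genotype, and the contracted leg was higher in 6 of 6 animals.

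mt-Rnr2, the large subunit RNA, was at 2912, 2066 and 3311 CPM in control uncontracted and at 3094, 3972 and 6146 CPM in control contracted libraries. In Myc mice it was at 2773, 2033 and 1639 CPM uncontracted and at 2758, 6372 and 4865 CPM contracted. The legs overlapped in both genotypes, and the contracted leg was higher in 5 of 6 animals. With the scaling of the test given further on, the mt-Rnr2 legs did not overlap in controls. The ratio of mt-Rnr2 to mt-Rnr1 reads stayed between 1.94 and 2.66 in all libraries.

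Among the transfer RNAs, mt-Tp (proline), mt-Tm (methionine) and mt-Tv (valine) had the most reads. Reads of a transfer RNA gene may come from the mature molecule or from a longer precursor, and these cannot be told apart here. Changes given for transfer RNAs are therefore changes in the reads of their genes. Their sequences are printed because all 3 passed the contraction test in Myc mice given further on, and capitals mark the anticodon, found as the middle of a 7-base loop closed by a 5-base stem. mt-Tp lies on the - strand and the others on the + strand, and no 50-base window of any transfer RNA gene was found in a nuclear transcript.
mt-Tp, chrM:15356-15422: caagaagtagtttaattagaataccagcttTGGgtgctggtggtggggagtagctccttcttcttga
mt-Tm, chrM:3845-3913: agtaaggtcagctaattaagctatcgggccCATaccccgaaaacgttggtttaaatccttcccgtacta
mt-Tv, chrM:1025-1093: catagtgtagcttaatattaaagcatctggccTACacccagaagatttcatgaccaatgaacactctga

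mt-Tp was at 328, 300.2 and 266 CPM in control uncontracted, 262, 198 and 590.4 in control contracted, 194, 228 and 159 in Myc uncontracted, and 383, 792 and 598 in Myc contracted libraries. mt-Tm was at 47.1, 47.6 and 51.4 CPM in control uncontracted, 62.6, 38.2 and 114 in control contracted, 54.6, 23.8 and 30.6 in Myc uncontracted, and 92.9, 145 and 125 in Myc contracted libraries. For both genes the legs overlapped in controls and did not in Myc mice. mt-Tl1, a leucine transfer RNA, was at 13.4, 9.27 and 7.81 CPM in control uncontracted, 14.8, 10.5 and 18.3 in control contracted, 5.72, 7.93 and 2.92 in Myc uncontracted, and 15.4, 26.8 and 25.8 in Myc contracted libraries. It was higher in the contracted leg of 6 of 6 animals, and its legs overlapped in controls but not in Myc mice. mt-Tv was at 22.01, 20.4 and 26.7 CPM in control uncontracted, 13.5, 17.1 and 37.2 in control contracted, 17.8, 17.8 and 8.75 in Myc uncontracted, and 23.7, 53.6 and 44.6 in Myc contracted libraries. mt-Ta (alanine) ranged from 2.92 to 25.6 CPM and mt-Tq (glutamine) from 4.37 to 30.8 CPM. The transfer RNAs mt-Tf, mt-Ti, mt-Tc, mt-Ts2, mt-Tl2 and mt-Tt held 0 to 13 reads per library and were too low to test. The 3 highest libraries for mt-Rnr1, mt-Rnr2, mt-Tp, mt-Tm, mt-Tl1 and mt-Tv were the contracted ones labelled control 3, Myc 2 and Myc 3.

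**Figure D3:**
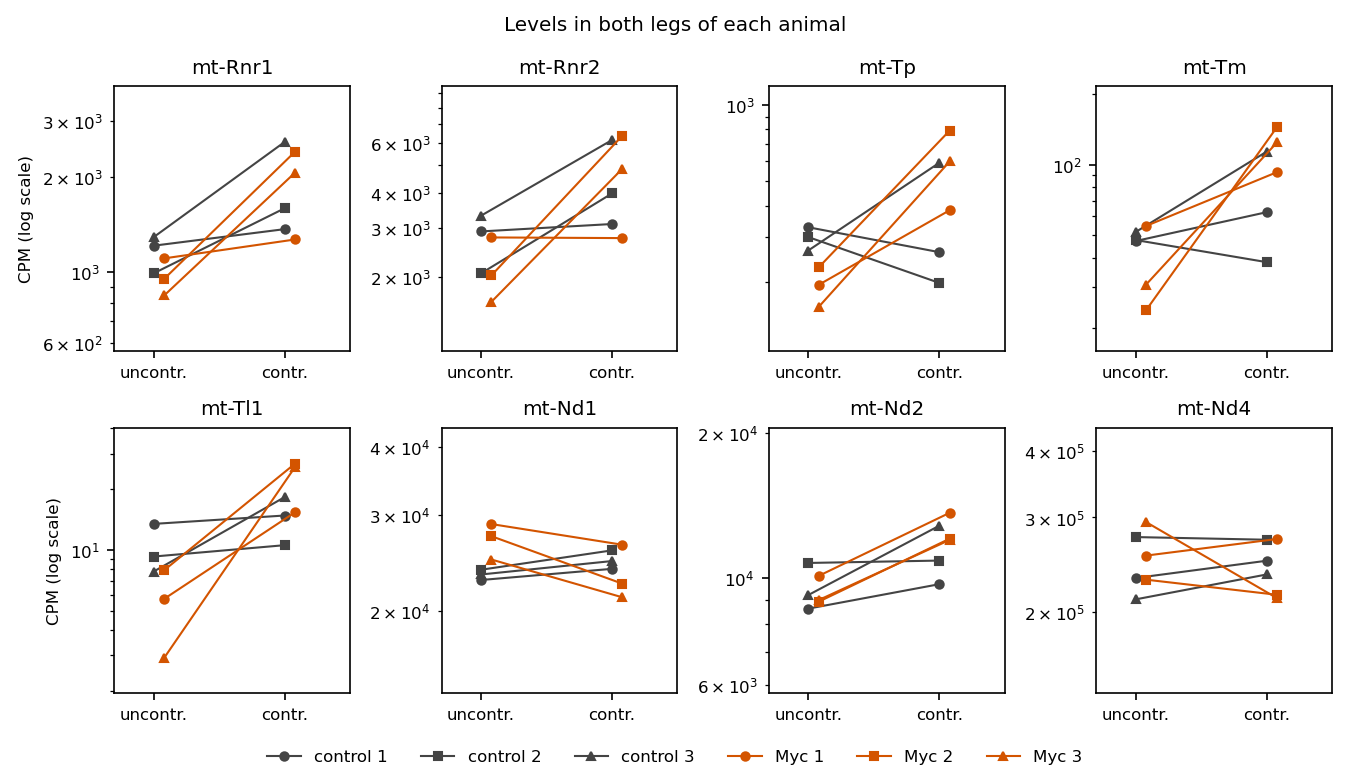
Level in CPM on a log axis in the uncontracted and contracted leg of each animal, with a line per animal, for the 2 ribosomal RNAs, 3 transfer RNAs and 3 messenger RNAs. The mt-Rnr1 lines rise in 6 of 6 animals, while those of mt-Nd4 rise in 3.

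Contraction was tested with edgeR's quasi-likelihood test over 6676 genes, among which 15 members had enough reads, namely 7 messenger RNAs, both ribosomal RNAs and 6 transfer RNAs. A gene passed where its p, adjusted over every tested gene by the Benjamini-Hochberg method, was under 0.05, and each change is a log2 ratio with its standard error. In controls 0 of 15 members passed, where 2.80% of all genes did. DESeq2 gave 0 as well, where 2.35% of all genes passed. In edgeR 2 of 15 members had an unadjusted p under 0.05, and 858 of 6676 genes did, a similar share. The 2 members were mt-Rnr1, at 0.62 ± 0.20 (adjusted p = 0.120), and mt-Rnr2, at 0.64 ± 0.24 (adjusted p = 0.230). Over all 15 the median was 0.15, against 0.01 over all genes.

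In Myc mice 7 of 15 members were higher in the contracted leg and 0 lower, where 3.45% of all genes were higher. The 7 were both ribosomal RNAs and 5 transfer RNAs. mt-Rnr1 rose by 0.95 ± 0.20 (edgeR adjusted p = 0.00546) and mt-Rnr2 by 1.10 ± 0.25 (adjusted p = 0.00997). mt-Tl1 rose by 1.99 ± 0.34 (adjusted p = 0.000717), mt-Tm by 1.70 ± 0.29 (adjusted p = 0.000717) and mt-Tp by 1.59 ± 0.28 (adjusted p = 0.000979). mt-Tv rose by 1.43 ± 0.32 (adjusted p = 0.0106), and mt-Ta by 1.61 ± 0.42 (adjusted p = 0.0287). The call of mt-Ta was lost with the animal as a block (adjusted p = 0.0558 as a fixed and 0.0846 as a random block). The call of mt-Rnr2 was lost in DESeq2 (adjusted p = 0.0511). A robust edgeR fit ended the calls of mt-Rnr2 (adjusted p = 0.154), mt-Rnr1 (adjusted p = 0.0614) and mt-Tp (adjusted p = 0.0832).

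None of the 7 messenger RNAs tested passed in Myc mice. mt-Nd2 was at 0.40 ± 0.14 (edgeR adjusted p = 0.117), mt-Nd1 at -0.24 ± 0.13 (adjusted p = 0.370) and mt-Nd4 at -0.19 ± 0.17 (adjusted p = 0.648). The median over the 15 members was 0.95, against -0.01 over all genes.

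Averaged over both genotypes, with the same libraries, 5 of 15 members were higher in the contracted leg and 0 lower, where 5.71% of all genes were higher. They were mt-Rnr1 (0.79 ± 0.14, edgeR adjusted p = 0.000691), mt-Rnr2 (0.87 ± 0.17, adjusted p = 0.00206), mt-Tl1 (1.23 ± 0.24, adjusted p = 0.00159), mt-Tm (1.10 ± 0.21, adjusted p = 0.00107) and mt-Tp (0.88 ± 0.20, adjusted p = 0.00540). mt-Rnr1, mt-Rnr2 and mt-Tl1 lie between bases 70 and 2750 of the mitochondrial chromosome with mt-Tv between them, and mt-Tm ends at base 3913, directly before mt-Nd2. Between mt-Tl1 and mt-Tm, at bases 2751 to 3707, lies mt-Nd1, which did not pass. The fifth call, mt-Tp, lies apart at bases 15356 to 15422 on the - strand. The messenger RNAs did not pass: mt-Nd4 was at -0.08 ± 0.12, mt-Nd1 at -0.09 ± 0.09, and mt-Co1, mt-Nd5 and mt-Cytb each at 0.03. mt-Nd2 was at 0.29 ± 0.10 (adjusted p = 0.0748) and passed with the animal as a random block (adjusted p = 0.0328). Without a stated strand setting, reads of overlapping or antisense neighbours cannot be told apart.

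Without the 4 contracted libraries whose Myc reads go against their labels, fewer genes passed altogether. In the averaged comparison 107 of 7282 genes passed, against 499 of 6676 with all libraries, and in Myc mice 59 of 7282, against 260 of 6676. Of the 5 averaged calls 1 remained, mt-Tm at 0.86 ± 0.20 (edgeR adjusted p = 0.0289). mt-Tl1 was then at 0.998 ± 0.325 (adjusted p = 0.230), mt-Tp at 0.41 ± 0.13 (adjusted p = 0.247), mt-Rnr1 at 0.32 ± 0.11 (adjusted p = 0.320) and mt-Rnr2 at 0.28 ± 0.15 (adjusted p = 0.708). Of the 7 calls in Myc mice 2 remained, mt-Tm at 1.34 ± 0.28 (adjusted p = 0.0178) and mt-Tp at 0.99 ± 0.19 (adjusted p = 0.00562). The lost calls differed in size, from mt-Tl1 at 1.45 ± 0.48 (adjusted p = 0.386) and mt-Ta at 1.05 ± 0.57 (adjusted p = 0.892) to mt-Rnr1 at 0.39 ± 0.16 (adjusted p = 0.710) and mt-Rnr2 at 0.36 ± 0.21 (adjusted p = 0.911). In that comparison each contracted group holds 1 library, which is assumed to vary like the others. Leaving out Myc contracted 2 alone left 3 of the 7 calls, where 2.19% of all genes passed in either direction. Without Myc uncontracted 3 alone 4 were left, where 2.46% of all genes passed.

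**Figure D4:**
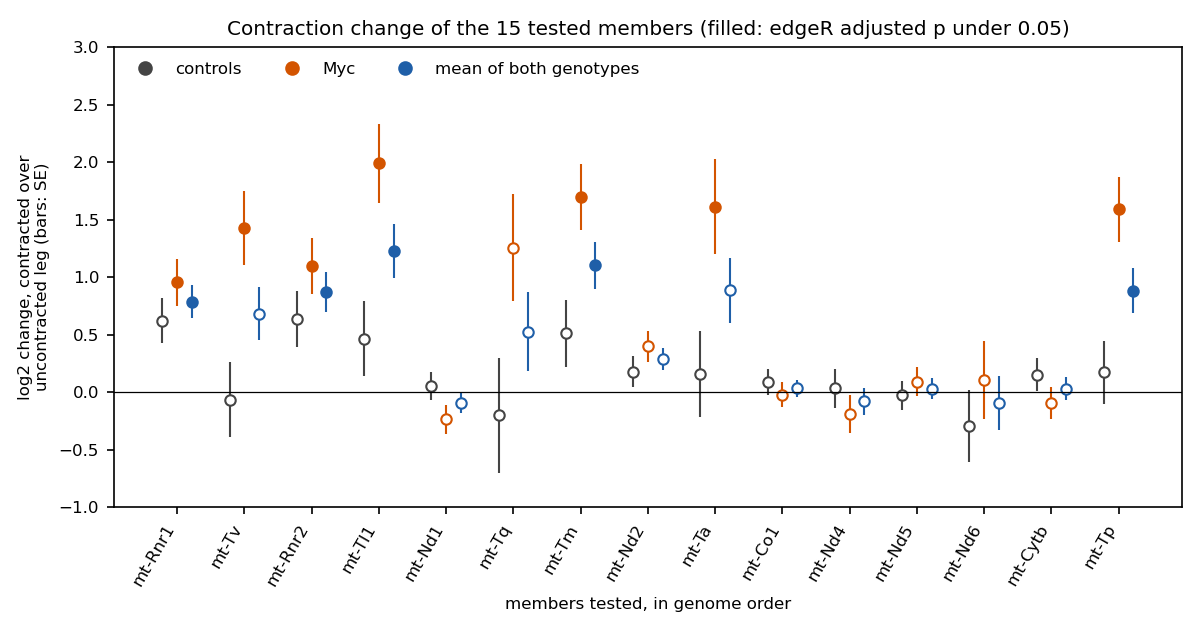
Log2 change from the uncontracted to the contracted leg of the 15 members tested, in controls, in Myc mice and as the mean of both, with bars of 1 standard error; filled points had an edgeR adjusted p under 0.05. Filled points are 2 ribosomal and 5 transfer RNAs in Myc mice and none of the messenger RNAs.

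The genotypes were compared within each leg. In uncontracted legs 0 of 15 members passed, where 0% of all genes did. In edgeR 3 members and 421 of 6676 genes had an unadjusted p under 0.05. The 3 members were mt-Tl1 at -0.90 ± 0.39 (adjusted p = 0.702), mt-Tp at -0.66 ± 0.28 (adjusted p = 0.702) and mt-Ta at -1.13 ± 0.44 (adjusted p = 0.681). In contracted legs 0 of 15 passed, where 0% of all genes did, with 5 members and 204 of 6676 genes at an unadjusted p under 0.05. All 5 members were transfer RNAs, among them mt-Tm at 0.74 ± 0.27 and mt-Tp at 0.75 ± 0.27 (each adjusted p = 0.999). DESeq2 called 0 members in either leg, where 0.015% of all genes passed in uncontracted and 0% in contracted legs. Of the 3 contracted libraries in each genotype, 2 have Myc reads that go against the label. Without those 4, 0 of 15 members and 0 of 7282 genes passed in contracted legs, with mt-Tm at 0.51 ± 0.35 (adjusted p = 0.929) and mt-Tp at 0.49 ± 0.24 (adjusted p = 0.881).

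The contraction change was not shown to differ between genotypes. The interaction passed for 0 of 15 members and 0% of all genes in edgeR, and for 0 members and 0% of all genes in DESeq2. In edgeR 6 members and 331 of 6676 genes had an unadjusted p under 0.05. mt-Tp, the smallest p of the members, was at 1.41 ± 0.39 (adjusted p = 0.854). Without the 4 libraries it was at 1.16 ± 0.27 (adjusted p = 0.886), and 0 of 15 members and 0 of 7282 genes passed. The 7 calls in Myc mice and 0 in controls therefore do not amount to a difference between the genotypes.

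Relations among the 10 members with a mean of at least 100 reads were computed across the 12 libraries as Pearson's r of log2 CPM, with 100000 permutations, 2-sided, and adjusted over the 45 pairs. Both legs of an animal enter, so the libraries are not fully independent. In all 7 pairs passed, and all were positive. mt-Rnr1 and mt-Rnr2 had r = 0.986 (permutation p = 1e-05, the smallest the permutations can give, adjusted p = 0.00045), Spearman's rho = 0.965, and r = 0.974 without the 2 libraries farthest from the median. mt-Tm and mt-Tp had r = 0.890 (permutation adjusted p = 0.00383), Spearman's rho = 0.776 and r = 0.794 without the 2 farthest.

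The ribosomal and transfer RNAs also moved together. For mt-Rnr1, r was 0.834 with mt-Tm and 0.830 with mt-Tp, and for mt-Rnr2 it was 0.808 and 0.791. The pair of mt-Tm and mt-Nd2 had r = 0.792. Spearman's rho passed for 1 of the 45 pairs, mt-Rnr1 and mt-Rnr2. Within groups, as deviations from group means, 2 pairs passed, mt-Rnr1 with mt-Rnr2 (r = 0.973) and with mt-Tp (r = 0.821). Without the 4 contracted libraries numbered 2 and 3, 1 pair passed, the 2 ribosomal RNAs (r = 0.959). mt-Nd4 ran against mt-Rnr2 (r = -0.600, permutation adjusted p = 0.139). It also makes up a large part of the library total that divides both values.

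The nuclear RNAs Gm42418 and Malat1 moved with the ribosomal RNAs. Gm42418, a gene whose reads are widely taken to come from cytosolic ribosomal RNA, held 2562, 1722 and 4557 reads in control uncontracted and 1746, 6668 and 16106 in control contracted libraries. In Myc mice it held 4692, 1449 and 876 uncontracted and 3512, 17093 and 8546 contracted. Its 3 highest libraries were the same 3 as for mt-Rnr1. Averaged over genotypes it rose by 1.75 ± 0.41 with contraction (edgeR adjusted p = 0.00895), and Malat1, a nuclear long non-coding RNA, by 1.38 ± 0.32 (adjusted p = 0.00844). Neat1, another one, rose by 0.41 ± 0.11 (adjusted p = 0.0171), and its relation to the members was not computed. It was highest in Myc contracted 2 and 3, at 817 and 802 CPM. In control contracted 3 it was at 575 CPM, below the 638 CPM of control contracted 1.

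Across libraries mt-Rnr2 had r = 0.951 with Gm42418, and 0.915 without the 2 libraries farthest from the median. With Malat1 it had r = 0.951. The permutation adjusted p of r was 0.000267 for both, over 20 relations chosen after seeing the data. Spearman's rho was 0.909 with Gm42418 and 0.916 with Malat1 (permutation adjusted p = 0.0012 for both). With the Gm42418 level as a covariate, 0 of the 15 members passed in the averaged comparison, and 197 of 6676 genes did, against 499 without it. mt-Rnr1 was then at 0.36 ± 0.12 (edgeR adjusted p = 0.101), mt-Rnr2 at 0.29 ± 0.11 (adjusted p = 0.252) and mt-Tl1 at 1.04 ± 0.30 (adjusted p = 0.0664). In Myc mice 3 of the 7 remained under that covariate, mt-Tl1 (1.75 ± 0.41, adjusted p = 0.0170), mt-Tm (1.18 ± 0.27, adjusted p = 0.0152) and mt-Tp (1.04 ± 0.27, adjusted p = 0.0398). Over all genes 124 passed there, against 260 without the covariate. The part of ribosomal RNA carry-over or RNA quality in these changes was not tested.

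**Figure D5:**
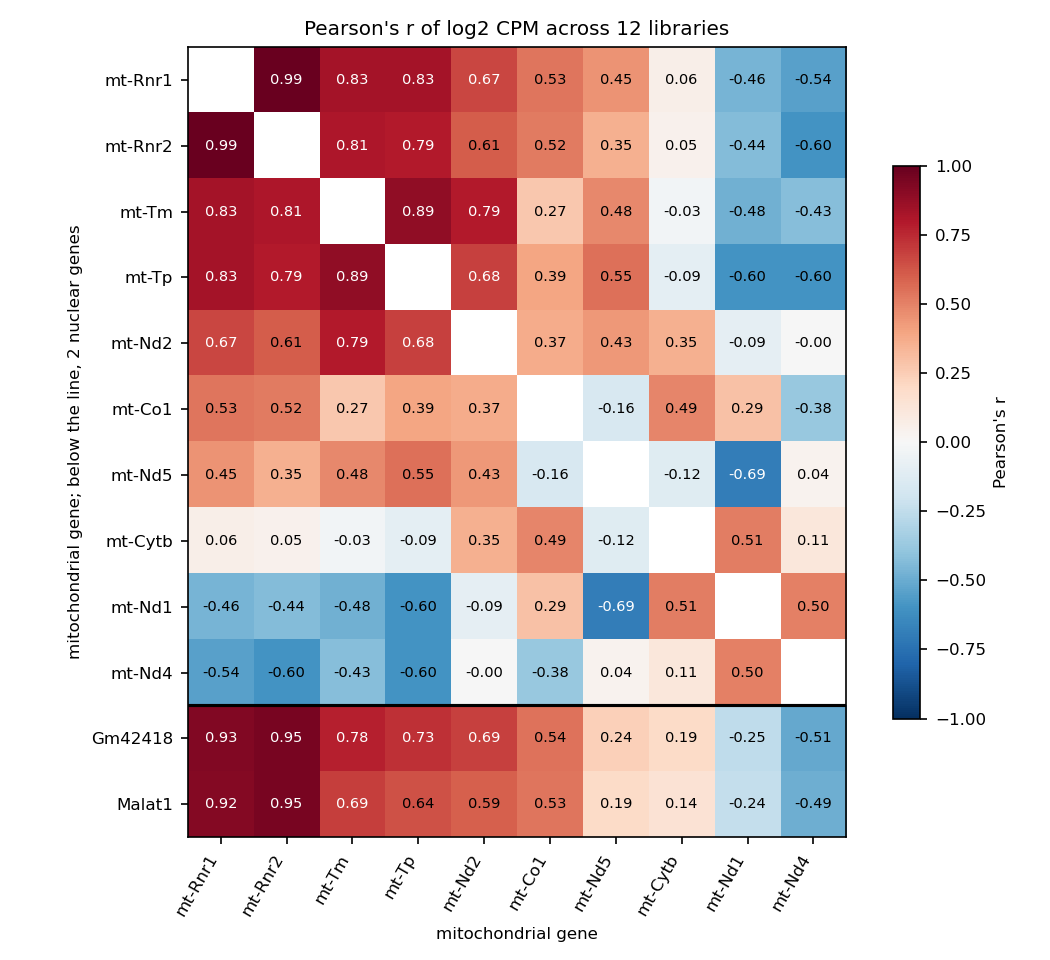
Pearson's r of log2 CPM across the 12 libraries between 10 mitochondrial genes, and below the line of the nuclear genes Gm42418 and Malat1 with each of them. The ribosomal and transfer RNAs form the block of high values at upper left, with 0.986 for mt-Rnr1 and mt-Rnr2.

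The nuclear partners of these genes were read in the averaged contraction comparison, where 7.47% of all genes passed in either direction. Of the nuclear-encoded subunits tested, 0 of 35 of complex I, 0 of 3 of complex II, 0 of 9 of complex III, 0 of 13 of complex IV and 0 of 14 of ATP synthase passed in it in edgeR. The median change of these lists lay between -0.08 and -0.004, against -0.003 over all genes. Cox4i1, a complex IV subunit, came nearest at -0.47 ± 0.15 (adjusted p = 0.0601). Of 23 genes of mitochondrial transcription and DNA maintenance only 9 had enough reads to test, and 1 passed. It was Ppargc1a, the coactivator known for driving mitochondrial biogenesis, which rose by 2.27 ± 0.26 (edgeR adjusted p = 2.75e-06). Of 31 genes of mitochondrial RNA processing, stability and decay 22 were tested and 0 passed.

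Markers of some other cells differed between the legs too. In the averaged comparison 0 of 3 fibroblast, 0 of 3 endothelial and 0 of 2 adipocyte markers tested passed. The neutrophil markers S100a8 and S100a9, both of which passed, summed to 0 to 3.25 CPM in uncontracted legs, 6.59 to 68.3 in control contracted and 3.65 to 50.9 in Myc contracted legs. In the 3 libraries highest for mt-Rnr2 the sum was 68.3 (control 3), 3.65 (Myc 2) and 50.9 CPM (Myc 3). In the other contracted libraries it was 53.1 (control 1), 6.59 (control 2) and 18.9 CPM (Myc 1), with mt-Rnr2 at 3094, 3972 and 2758 CPM. Of 3 macrophage markers 2 were tested, and they passed in opposite directions, Cd68 at 1.70 ± 0.40 (edgeR adjusted p = 0.00937) and Csf1r at -0.54 ± 0.15 (adjusted p = 0.0293). The 3 together summed to 36.2 to 78.1 CPM in uncontracted and 34.3 to 48.4 in contracted legs. All 4 haemoglobin genes used as erythrocyte markers rose, and summed to 326 to 429 CPM in uncontracted and 398 to 1003 in contracted legs. The part of these cells in the mitochondrial changes was not tested.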

How the data were processed

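RNA was extracted with Trizol and sequenced after a QuantSeq 3' mRNA kit, per the labels' protocols. The authors deposited unnormalized whole read counts for each gene. The submitters' processing notes list STAR 2.5.2a, HTSeq 0.6.0, FastQC 0.11.5, SAMtools and build mm10, without saying what each did. Annotation, strand setting, filters and the treatment of reads with several matches are not given in the sources used here.

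Symbols matched 47224 of 47643 identifiers. Shares are percentages of a library's total count, and CPM are counts scaled to it, computed here. The quasi-likelihood F test of edgeR 4.0.16 (R 4.3.3, 2-sided) was fitted to 4 group means over 12 libraries, after TMM scaling and the filterByExpr filter at 10 reads. Standard errors restate that test. Correlations used numpy 2.4.6 with 0.5 reads added. Steps were tested on simulated data. Alternatives were other scalings, filters, DESeq2 1.42.0, robust fits, left-out libraries, and the animal as a block.

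Per the titles, an animal's left and right legs carry its number. Within animals, deviations from group means correlated at -0.122 to 0.112 over all genes.

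Members with a mean of at least 50 reads are named with their values, the others by range. Members and lists were chosen with earlier results of these data known.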

Additional observations from a re-analysis of the deposited data

Results flagged for a closer look

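The log2 ratio of contracted over uncontracted CPM of mt-Nd1, a complex I subunit, was positive in 3 of 3 controls and negative in 3 of 3 Myc mice. It was 0.07, 0.12 and 0.08 in the 3 controls and -0.13, -0.29 and -0.23 in the 3 Myc mice, so the mean difference, Myc minus control, was -0.304. The fitted interaction was -0.29 ± 0.18 (edgeR adjusted p = 0.966) and did not pass, and neither genotype passed on its own. In 4 of the contracted libraries, those of animals 2 and 3 in either genotype, the Myc reads go against the label. Without these the fitted change was 0.05 ± 0.15 in controls (adjusted p = 0.998) and -0.03 ± 0.15 in Myc mice (adjusted p = 0.995), and the interaction -0.09 ± 0.21 (adjusted p = 0.999).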

How the results depend on the processing

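Without a low-count filter, members passing numbered 2 for contraction in controls, 1 for Myc in uncontracted legs, 2 for Myc in contracted legs and 3 for the interaction, against 0 each with the filter. Of the 17871 genes then tested, 1.71%, 0.134%, 0.028% and 0.101% passed, in that order. For contraction in Myc mice the 7 calls became 4 with a robust fit, 2 without contracted 2 and 3 of both genotypes and 3 with the Gm42418 level as a covariate, which was chosen after seeing the data. For contraction averaged over genotypes the 5 became 1 and 0 under the last 2 of these. Leaving out each library in turn gave 0 to 1 calls in controls, 3 to 8 in Myc mice, 0 to 1 for the interaction and 5 to 8 averaged. Over all genes, 1.66 to 4.45%, 2.12 to 7.37%, 0 to 0.057% and 5.05 to 10.3% passed in the same fits, in that order. Of the 45 correlated pairs 2 to 9 then passed, against 7 with all libraries. Those 7 became 2 as deviations from group means, 1 by Spearman's rho, 1 without contracted 2 and 3 of both genotypes, and 0 over the 6 animals as means of both legs, the replicate block. The animal as a fixed block gave 6 calls in Myc mice and 5 averaged, where 3.42% and 6.64% of all genes passed. Beyond mt-Ta and mt-Nd2 the fixed or random block changed no other call. The robust fit called 3.77% of all genes in Myc mice and 7.19% averaged. Averaged, it ended the calls of mt-Rnr2 (adjusted p = 0.0750) and mt-Tp (adjusted p = 0.123). The cause was not tested. Over the members and 24 settings, 1962 of 2094 values kept their call, or stayed uncalled within 1 standard error of the main value. Such an uncalled value may differ in sign. Another 36 lost and 26 gained a call, 70 moved further without a call, and none that had passed changed sign. Depth limits the transfer RNAs with fewer than 50 reads.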
